A study of Mus musculus with 49 samples.

Results

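The genes described here encode voltage-gated calcium and sodium channels, namely every protein-coding gene of the count table whose symbol starts with Cacna, Cacnb or Cacng, or with Scn, a number and a or b. The rule found 40 genes of 52636, and it used no measured value. They comprise 10 pore-forming calcium alpha1 genes, 4 alpha2delta genes, 4 calcium beta genes, 8 gamma genes, 10 pore-forming sodium alpha genes and 4 sodium beta genes. RNA came from mice, from the projection neurons of the NAc (nucleus accumbens) in the ventral striatum, the medium spiny neurons (MSNs), which carry the dopamine receptor D1 or D2. All mice were on the C57BL/6J background, their ages are not given in the sources used here, and the neurons were defined by the promoter of Drd1 or Drd2. In nuclear-FACS, Drd1-cre or Drd2-cre mice carried a Cre-dependent Thy1-loxPSTOPloxP-EGFP-F allele, and GFP nuclei were sorted from frozen tissue after mechanical dissociation (6 D1 and 5 D2 libraries). In whole cell-FACS, a fluorophore in the cytoplasm, driven by the Drd1 or Drd2 promoter, marked the cells, which were sorted from fresh tissue after enzymatic dissociation (8 D1 and 6 D2 libraries). In RiboTag, Drd1-cre or Drd2-cre mice carried the Cre-dependent, HA-tagged ribosomal protein allele Rpl22-HA, and ribosomes were immunoprecipitated from fresh tissue (6 D1 and 6 D2 libraries labelled male, 5 D1 and 5 D2 labelled female). The nuclear and whole cell mice were all labelled male, and the labels give each sample as its own mouse.

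Voltage-gated channels open when the membrane depolarizes. The alpha subunit of sodium channels carries the upstroke of the action potential, and the alpha1 subunit of calcium channels admits the calcium that drives transmitter release, gene regulation and rebound firing. Alpha2delta and calcium beta subunits bring alpha1 to the membrane, sodium beta subunits set the gating and placement of the alpha subunit, and most brain gamma proteins are better known as partners of AMPA-type glutamate receptors (TARPs). MSNs rest at a strongly negative potential, and their firing depends on how these channels respond to excitatory input.

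The libraries held 10476223 to 27965357 counts in whole cell, 3701255 to 68777008 in nuclear and 24076888 to 45641342 in RiboTag samples. The 40 genes took 0.301 to 0.975% of counts in whole cell, 0.256 to 0.809% in nuclear and 0.0662 to 0.0930% in RiboTag libraries, where the 10 most counted genes alone held 84.9 to 88.3%. Background was read from the counts per kb of 1291 olfactory and vomeronasal receptor genes, which these neurons are not known to use. Spread over the summed spans of the annotated genes, it would make up 0.0227 to 0.0577% of the counts in RiboTag libraries, 8.18 to 52.2% in whole cell, 0.528 to 21.9% in nuclear D1 and 32.6 to 52.4% in nuclear D2 libraries. The cell type labels were met by Drd1 and Drd2 in whole cell and RiboTag libraries. In nuclear libraries Drd1 averaged 29.1 CPM (library-size-normalised counts, TMM-scaled within a method) in D1 and 3.68 CPM in D2, a called difference, while Drd2 averaged 149 CPM in D1 and 217 CPM in D2, which was not called (adjusted p = 0.194, edgeR's quasi-likelihood test). Of the 5 D2-MSN markers, 3 (Penk, Adora2a and Gpr6) were called lower in nuclear D2 than in nuclear D1 libraries, against their label, and none higher. In the RiboTag group labelled male, 6 of 12 libraries (4 D1 and 2 D2) had 4 Y-linked genes summing to under 2 CPM, against 8.54 to 10.7 CPM in the other 6, so these groups are called labelled male. The members called there and the counts of called members are also given without the 6 libraries, and the other values of these groups rest on all 12.

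In RiboTag libraries, the channel gene that was called between the cell types in both sexes was Cacna2d2, whose product is an alpha2delta subunit that raises the number of calcium channels at the membrane. It lay at chr9:107399612-107529343 on the plus strand of GRCm38 (ENSMUSG00000010066). Among RiboTag libraries labelled male, Cacna2d2 ranged from 12.6 to 17.4 CPM with a median of 15.9 in D1, and from 22.5 to 29.1 CPM with a median of 26.2 in D2. In female RiboTag libraries, Cacna2d2 was at 13.1, 13.1, 13.4, 14.5 and 16.3 CPM in D1 and at 22, 22.8, 27.2, 27.5 and 28.3 CPM in D2. Every D2 library was above every D1 library of either sex. The D2 minus D1 difference was 0.76 ± 0.08 (log2, SE, n = 6 and 6), or 1.70-fold, in libraries labelled male (adjusted p = 1.04e-07, edgeR's quasi-likelihood test with Benjamini-Hochberg adjustment over all genes tested). In females it was 0.86 ± 0.09 (log2, SE, n = 5 and 5), or 1.82-fold (adjusted p = 7.31e-08, same edgeR test). The female difference less that of the group labelled male was 0.10 (log2, 95% interval -0.15 to 0.34). Without the 6 libraries that went against their label, the difference in the group labelled male was 0.80 (log2, adjusted p = 0.00106, same edgeR test). Such fits, here and below, kept 2 D1 and 4 D2 libraries labelled male. A call lost in them cannot be told apart from the effect of fewer libraries. Bulk libraries cannot tell a lower level per cell from fewer cells of the tagged type, here or below.

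Counted over all members, a difference was called where the adjusted p was at most 0.05 and the absolute log2 fold change above 0.38. In RiboTag libraries labelled male, 3 of 32 members tested were called, beside 4.09% of all genes tested. In females 1 of 32 was called, beside 2.88% of all genes. The median D2 minus D1 difference of the members was 0.06 (log2) in libraries labelled male and 0.02 in females, against 0.00 over all genes in both. For 22 members in libraries labelled male and 24 in females, the 95% interval lay wholly within 0.38 of 0 in either direction, so most channel genes had closely bounded differences at this depth.

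Cacnb3, which encodes a beta subunit that escorts alpha1 to the membrane, was called lower in D2 in libraries labelled male. Cacnb3 ranged from 9.87 to 12.3 CPM with a median of 10.9 in D1 and from 6.99 to 9.51 CPM with a median of 7.93 in D2. The groups did not overlap, and the difference was -0.45 ± 0.08 (log2, SE, n = 6 and 6, adjusted p = 0.00053, edgeR's quasi-likelihood test). In females, Cacnb3 was at 8.11, 9.65, 10.8, 10.8 and 11.0 CPM in D1 and at 7.90, 8.22, 8.52, 9.53 and 9.96 CPM in D2. These groups overlapped, and the difference of -0.18 (log2) did not pass (adjusted p = 0.325, same edgeR test). Without the 6 libraries against their label, which left 2 D1 and 4 D2, the Cacnb3 difference in the group labelled male was -0.31 (log2). It was no longer called (adjusted p = 0.259, same edgeR test).

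Cacna1g encodes a low-threshold, T-type alpha1 subunit, a class that opens near rest and supports burst firing. In libraries labelled male, Cacna1g ranged from 2.00 to 3.51 CPM with a median of 2.87 in D1 and from 1.06 to 2.14 CPM with a median of 1.68 in D2. In females, Cacna1g was at 1.95, 2.08, 2.28, 2.31 and 2.52 CPM in D1 and at 0.782, 1.02, 1.81, 1.84 and 2.69 CPM in D2. The groups overlapped in both sexes, in females because the highest value of all belonged to a D2 library. The difference was -0.71 ± 0.19 (log2, SE, n = 6 and 6) in libraries labelled male (adjusted p = 0.0198, edgeR's quasi-likelihood test) and -0.47 ± 0.21 (log2, SE, n = 5 and 5) in females, which did not pass (adjusted p = 0.28, same test). The call was lost without D1 replicate 4 (adjusted p = 0.0697), D2 replicate 2 (0.0525) or D2 replicate 4 (0.0521) of the group labelled male, and without the 6 libraries against their label (-0.54, adjusted p = 0.404, same edgeR test). It was gained in females without the D2 library whose column is numbered 2, a number that the sample titles do not share (-0.70, adjusted p = 0.0403, same edgeR test).

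In the mean of the contrasts of both sexes, which was added once the data had been seen, Cacna2d2 stood at 0.81 ± 0.06 (log2, SE, n = 11 and 11, adjusted p = 2.53e-11) and Cacna1g at -0.59 ± 0.14 (adjusted p = 0.00543), both called by edgeR's quasi-likelihood test. Cacnb3 stood at -0.32 ± 0.06 (log2, SE), with an adjusted p of 0.000467 by the same edgeR test and a size under the limit of 0.38. The share of all genes called there was 4.25%.

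**Figure D1:**
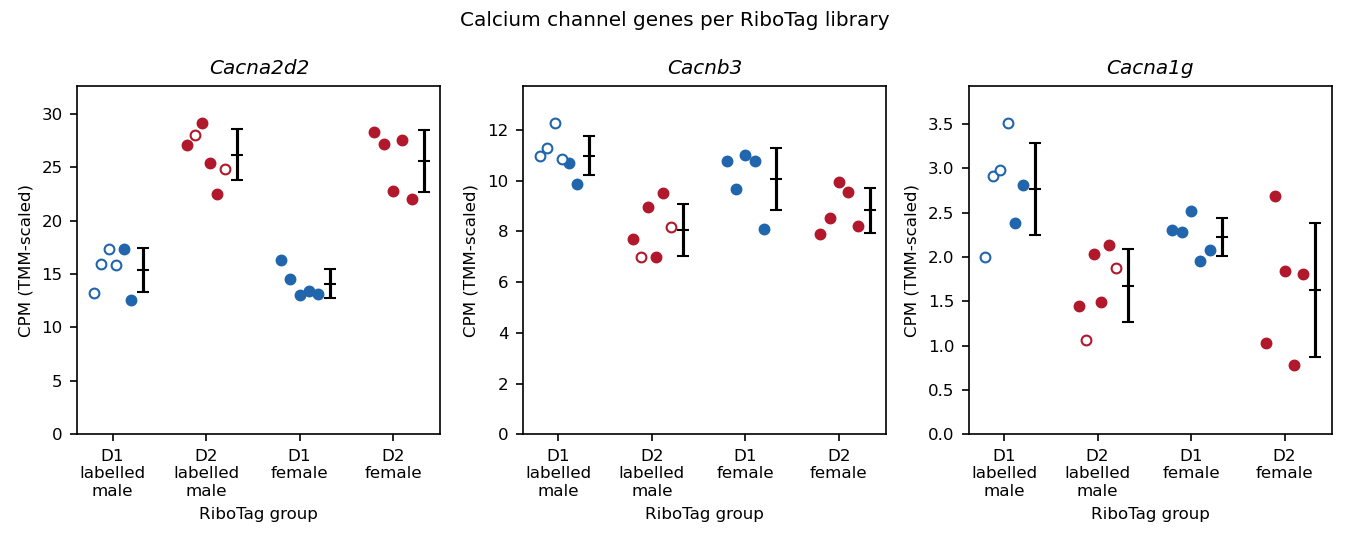
TMM-scaled CPM (y axis, starting at 0) of Cacna2d2, Cacnb3 and Cacna1g in each RiboTag library by group (x axis), with D1 in blue and D2 in red. Open points are the 6 libraries labelled male whose Y-linked genes summed to under 2 CPM, and black bars give the mean and SD. The D2 libraries of Cacna2d2 sit between 22 and 29.1 CPM, all above the D1 libraries, which reach 17.4 CPM.

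Other members of the RiboTag comparison passed the adjusted p but were smaller than the limit on the fold change. Cacnb1, another calcium beta subunit, did not overlap in libraries labelled male, at 19.8 to 23.3 CPM in D1 and 24.6 to 27 CPM in D2 (0.24, log2, adjusted p = 0.00217, edgeR's quasi-likelihood test). The T-type gene Cacna1i did not overlap either, at 12.4 to 14.2 CPM in D1 and 14.5 to 16.1 CPM in D2 (0.18, log2, adjusted p = 0.0279, same edgeR test). Its direction was the opposite of that of Cacna1g. In females the D1 and D2 groups overlapped for both Cacnb1 (means of 21.4 and 23.5 CPM) and Cacna1i (means of 13.8 and 14.5 CPM). Scn4b, the sodium beta gene tied to resurgent current, had an adjusted p just under the threshold in females, at 59.1, 66.2, 68.0, 71.2 and 79.4 CPM in D1 and 77.1, 82.6, 85.7, 86.5 and 88.6 CPM in D2 (0.29, log2, adjusted p = 0.0493, same edgeR test). The Scn4b groups overlapped in females and in libraries labelled male, where the means were 63.7 CPM in D1 and 73.8 CPM in D2. None of the brain's 4 main pore-forming sodium genes was called in libraries labelled male, where Scn2a differed by -0.09, Scn8a by 0.00, Scn3a by 0.08 and Scn1a by -0.30 (log2). In females the groups did not overlap for Scn2a (means of 88.4 CPM in D1 and 79.6 in D2) or Cacna1b (18.6 and 16.7), and neither was called. In the mean of both sexes Scn2a passed the adjusted p at a size under the limit (-0.12, log2, adjusted p = 0.00712, same edgeR test). Between female libraries and those labelled male, 0 of 32 members were called by edgeR's quasi-likelihood test, beside 0.0534% of all genes, and 6 members had an unadjusted p under 0.05. Of the 12 libraries labelled male, 6 go against that label, and without them 0 were called, with 3 at an unadjusted p under 0.05 (same edgeR test). The D2 minus D1 difference differed between the sexes for 0 members by the same edgeR test, beside 0% of all genes, with 4 members at an unadjusted p under 0.05, and for 0 without the 6 libraries, with 1 at an unadjusted p under 0.05.

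Whole cell libraries were less precise. No member of 40 was called there by edgeR's quasi-likelihood test, beside 0.102% of all genes tested, although 13 had an unadjusted p under 0.05. DESeq2 called 1 member, Cacna1c, an L-type alpha1 gene (0.92, log2, adjusted p = 0.0410). Neither the share of all genes called by DESeq2 nor that at an unadjusted p under 0.05 is given here. No member's D1 and D2 groups were apart in whole cell libraries, a count that was not made over all genes. The 95% intervals reached a median of 0.54 (log2) to either side of the estimate, against 0.17 in RiboTag libraries labelled male. Cacna2d2 ranged from 48.1 to 90.7 CPM with a median of 62.0 in whole cell D1 and from 61.6 to 127 CPM with a median of 109 in whole cell D2. The difference of 0.71 ± 0.21 (log2, SE, n = 8 and 6) was close in size to those of RiboTag but did not pass (adjusted p = 0.249, edgeR's quasi-likelihood test). All but 1 of the D2 libraries lay above the highest D1 library, and the low one made the groups overlap. Cacnb2, a calcium beta gene, and the alpha2delta gene Cacna2d3 had differences of 1.03 and 0.86 (log2), with adjusted p of 0.208 and 0.501 by the same edgeR test.

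In nuclear libraries the picture differed. Of 40 members, 24 were called by edgeR's quasi-likelihood test, 22 lower and 2 higher in D2 than in D1, beside 24.8% of all genes tested (19.4% lower and 5.43% higher). The members' median difference was -0.85 (log2), while that of all genes was 0.38, so that members fell by 1.23 relative to it. The 33197 genes tested there include non-coding ones, and no share or median over protein-coding genes is given. The sodium beta genes Scn2b, Scn3b and Scn4b and all 4 calcium beta genes were called lower, as were 4 of 10 alpha1, 2 of 4 alpha2delta, 4 of 8 gamma and 4 of 10 sodium alpha genes. The scale decided the sign of most of them. With total counts as the only scale, added once the data had been seen, the median of all genes was 1.56 (log2), 12 members were called (11 higher and 1 lower), and only 8 of the 22 stayed below 0. The share of all genes called on that scale is not given here. Since these 22 were picked as lower under TMM, and another scale of the same libraries shifts all genes nearly alike, their order against other genes was nearly set in advance. All 22 were lower than the median of all genes under TMM, DESeq2's size factors and total counts, which is no separate support. Under the study's final filters, 15 of the 20 that could be tested were lower than that median, and the median of all members tested there lay at -0.19 (log2) relative to it.

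Scn2b, a sodium beta gene at chr9:45117782-45130070 on the plus strand of GRCm38, had the lowest nuclear difference. It ranged from 19.7 to 159 CPM with a median of 69.3 in nuclear D1 and was at 7.15, 8.47, 12.3, 13.3 and 16.5 CPM in nuclear D2. All D2 libraries of Scn2b were below all D1 libraries (-2.78 ± 0.52, log2, SE, n = 6 and 5, adjusted p = 0.00494, edgeR's quasi-likelihood test), and it was the 1 member still called lower on total counts (-1.01, adjusted p = 0.0484, same edgeR test). Its span lies wholly within the antisense RNA gene Gm10684, and since strand was not used in counting, reads of the 2 cannot be told apart. Scn4b, the neighbouring gene at chr9:45138395-45154152 on the same strand, ranged from 29.9 to 175 CPM with a median of 67.6 in nuclear D1 and was at 11.6, 18.0, 18.0, 21.8 and 28.1 CPM in D2. The Scn4b groups did not overlap either (-2.12 ± 0.45, log2, SE, adjusted p = 0.00596, same edgeR test; -0.42 on total counts).

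Scn3b and the calcium beta genes had the same direction under TMM. Scn3b was at -1.52, Cacnb1 at -1.66, Cacnb3 at -1.52, Cacnb2 at -1.43 and Cacnb4 at -1.08 (log2, TMM), with adjusted p of 0.00494 to 0.0155 by edgeR's quasi-likelihood test. On total counts, Cacnb3 and Cacnb4 turned to 0.08 and 0.30. Among pore-forming sodium genes, Scn2a, a main alpha subunit of principal neurons of the forebrain, ranged from 153 to 457 CPM with a median of 311 in nuclear D1 and was at 58.1, 86.5, 89.1, 105 and 122 CPM in nuclear D2. The Scn2a groups were apart (-1.73, log2, adjusted p = 0.00494, same edgeR test; -0.28 on total counts). Scn3a, Scn8a and Scn1a were at -1.16, -1.01 and -0.92 (log2, TMM), each called lower, and each above 0 on total counts (0.19, 0.43 and 0.42).

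Among calcium alpha1 genes, the R-type gene Cacna1e (-1.26), the T-type gene Cacna1h (-0.94), the N-type gene Cacna1b (-0.89) and the L-type gene Cacna1c (-0.85) were called lower under TMM (log2), and all 4 turned positive on total counts (0.13, 0.46, 0.44 and 0.46). The alpha2delta genes Cacna2d3 (-1.45) and Cacna2d1 (-0.85) were called lower, with -0.09 and 0.47 on total counts. Cacna2d2 was not called, at -0.22 ± 0.19 (log2, SE, adjusted p = 0.352, edgeR's quasi-likelihood test), a median of 68.6 CPM in nuclear D1 and values of 50.1, 56.7, 57.7, 60.4 and 61.5 CPM in nuclear D2. The gamma genes called lower under TMM were the TARPs Cacng8 (-1.25), Cacng3 (-1.23), Cacng4 (-1.10) and Cacng7 (-0.72), with 0.08, 0.18, 0.36 and 0.53 on total counts. The skeletal muscle gene Cacna1s (1.84) and the glial sodium-sensing gene Scn7a (1.04) were called higher, from levels whose median in nuclear D2 was 2.45 and 1.25 times background. Both lost their call in some fits without 1 library, as did Cacna1c and Cacng7 among the lower genes, and 20 of the 24 calls held in every such fit.

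Background and other gene lists moved with these nuclear values. The median member stood at 23.7 times background in nuclear D1 libraries and at 3.53 times in nuclear D2 libraries, and no D2 median of a member exceeded 7.15 times. Subtracting the background left 15 members called (2 higher and 13 lower), and all 22 stayed below 0. Without the 3 D1 libraries of background under 5%, also added later, 18 were called (4 higher and 14 lower), and without the 3 D1 libraries in which 10 genes held over 50% of counts, 16 were called, all lower. Under the study's final filters 22 members were tested and 6 called (2 higher and 4 lower). The share of all genes called in each of these fits is not given here, so the counts cannot be read as particular to the members. All 5 markers of MSNs of either kind (Ppp1r1b, Pde10a, Bcl11b, Foxp1 and Rgs9) were called lower in nuclear D2, and their summed level ranged from 1738 to 4875 CPM in D1 and from 650 to 1692 CPM in D2. Of the oligodendrocyte markers 4 of 5 were called lower (482 to 1563 CPM in D1, 181 to 455 CPM in D2), and of the astrocyte markers 3 of 5 (154 to 336 CPM in D1, 105 to 136 CPM in D2). Of the 3 endothelial markers 1 was called higher (15.0 to 86.4 CPM in D1, 86.6 to 111 CPM in D2). Of the 4 microglia markers 2 were called lower (108 to 147 CPM in D1, 103 to 114 CPM in D2), and of the 5 interneuron markers 2 (50.6 to 103 CPM in D1, 61.7 to 69.9 CPM in D2). Neither of the 2 markers of oligodendrocyte precursors was called (26.9 to 41.2 CPM in D1, 32.3 to 39.8 CPM in D2). No marker was at 0 in every library of a nuclear group. The part of these values in the channel gene results was not tested.

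**Figure D2:**
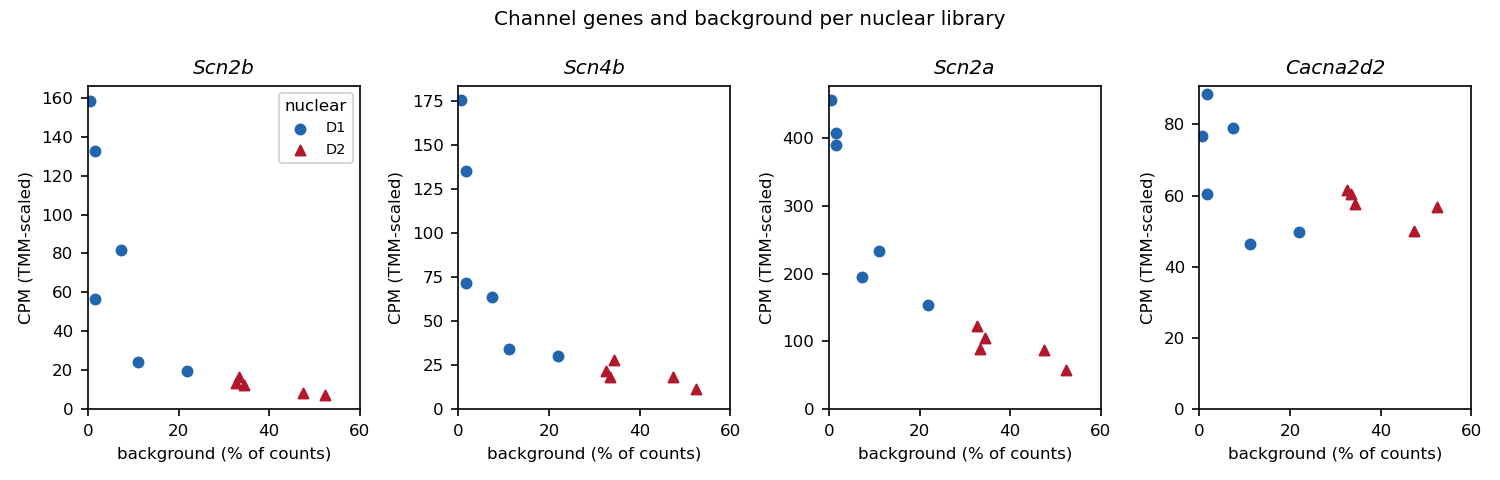
TMM-scaled CPM (y axes, starting at 0) of Scn2b, Scn4b, Scn2a and Cacna2d2 in each nuclear library against the share of counts that receptor-gene background would make up (x axes, percent), with D1 as blue circles and D2 as red triangles. D1 libraries lie at 0.528 to 21.9% background and D2 libraries at 32.6 to 52.4%, so the groups are apart on both axes for the first 3 genes, and Cacna2d2 overlaps in level.

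The methods' own D2 minus D1 differences were compared directly in 1 fit of all libraries labelled male. The nuclear and whole cell differences differed for 29 of 40 members, 27 lower and 2 higher in nuclear, beside 23.3% of all genes (16.7% lower and 6.66% higher). The RiboTag and nuclear differences differed for 20 members, 19 higher and 1 lower in RiboTag, beside 13.9% of all genes (12.6% higher and 1.35% lower). These comparisons share the nuclear libraries. The RiboTag and whole cell differences differed for 0 members by edgeR's quasi-likelihood test, beside 0.0993% of all genes, and 4 members had an unadjusted p under 0.05. For Cacna2d2, the RiboTag difference less the whole cell difference was 0.02 (log2, 95% interval -0.49 to 0.52), and less the nuclear difference it was 0.99 (log2, adjusted p = 0.0101, same edgeR test). On total counts, the first contrast gave 18 members, all higher in nuclear, and the second 3, all lower in RiboTag, with no share of all genes given here. Without the 6 RiboTag libraries against their label, which left 2 D1 and 4 D2, the second gave 0 by edgeR's quasi-likelihood test. There 21 members had an unadjusted p under 0.05.

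**Figure D3:**
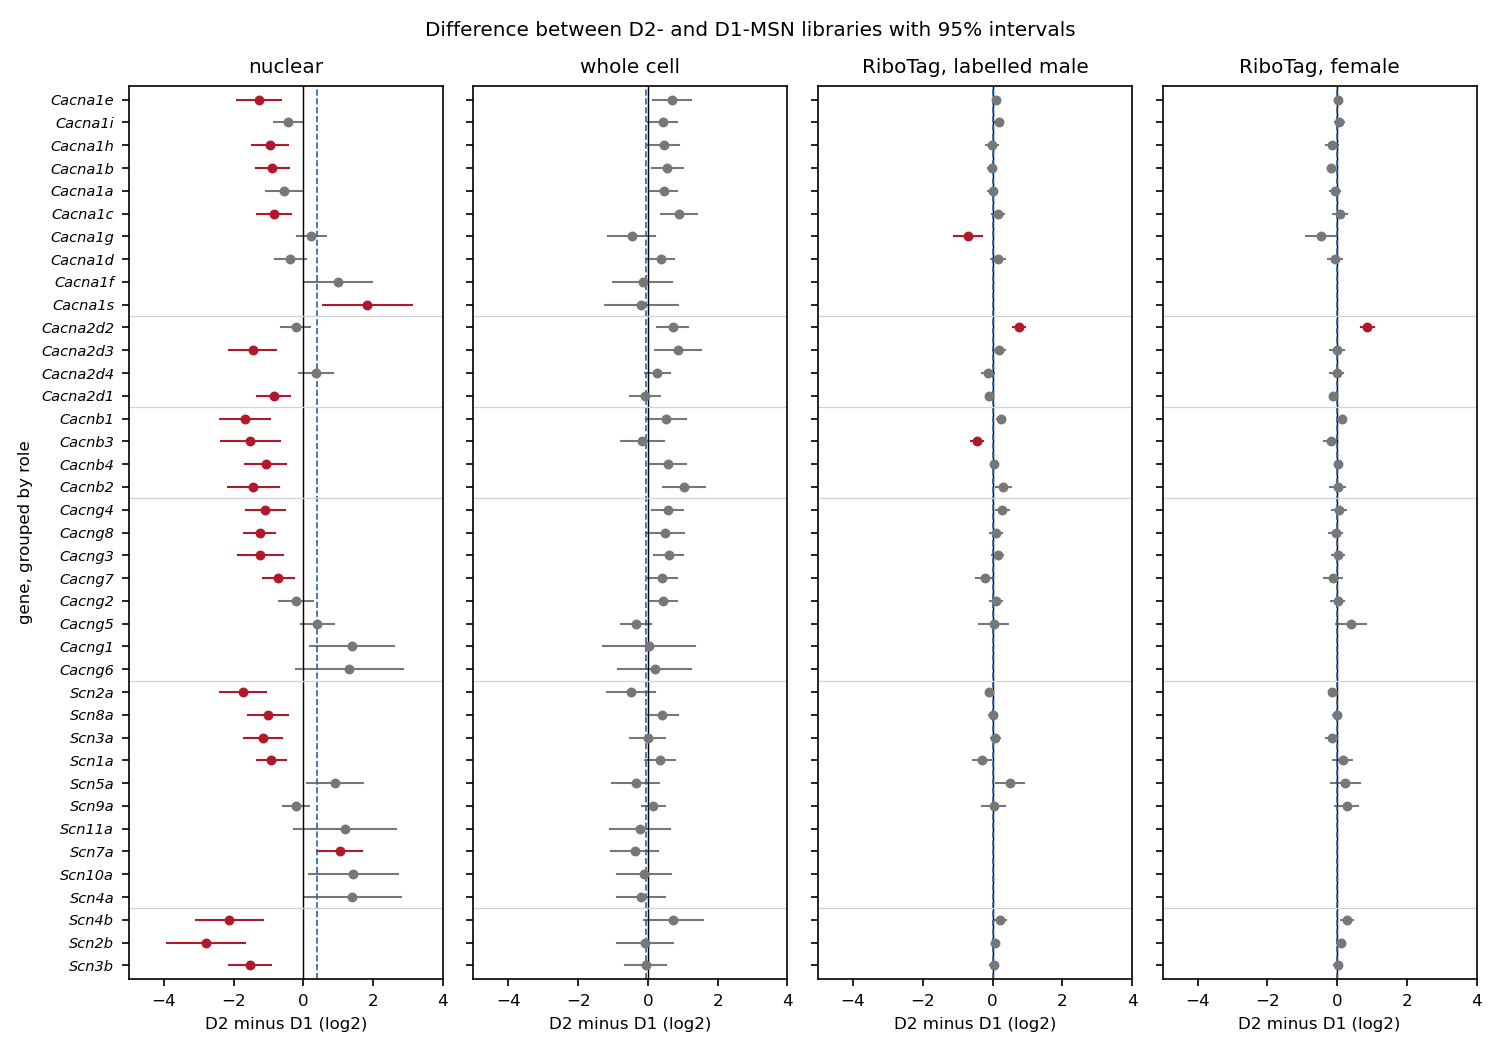
D2 minus D1 difference (x axis, log2, TMM scale) of 39 members, grouped by role (y axis), in the 4 comparisons. Points are estimates, lines are 95% intervals, red marks the called members, the black line is 0, and the dashed blue line is the median of all genes tested, which lies at 0.38 in nuclear libraries.

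The level of the members by method and cell type was described with no test, as FPKM on the gene span (library-size-normalised fragments per kb of the whole gene, TMM-scaled over all libraries). Orders of level given below hold for this unit, and several differ in CPM. Scn2b and Scn4b had the highest means in every group except nuclear D2, where Scn4b (0.568 FPKM) led and Scn2b (0.430) was close to Cacna1a (0.429) and Cacnb1 (0.418). In RiboTag libraries labelled male, Scn2b was at 13.1 ± 0.26 FPKM in D1 and 13.7 ± 0.69 in D2, and Scn4b at 12.6 ± 2.0 and 14.7 ± 1.6 (SD, n = 6 each). In females, Scn2b was at 13.3 ± 0.86 and 14.7 ± 0.32 FPKM and Scn4b at 13.9 ± 1.6 and 17.5 ± 1.1 (SD, n = 5 each). The order of the 2 genes was within their spread, except in female D2 libraries, where all Scn4b values (15.6 to 18.3 FPKM) exceeded those of Scn2b (14.2 to 15.1 FPKM). Together they made up 58.7% of the members' summed FPKM in RiboTag libraries, 38.9% in whole cell and 18.6% in nuclear libraries, over both cell types. Both genes are short, and these shares and the first place hold for the gene span as length. In CPM, Cacna1e (98.7) and Scn2a (89.0) stood above Scn4b (63.7) and Scn2b (51.4) in RiboTag D1 labelled male.

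Cacnb1 came next in RiboTag libraries, at 3.16 ± 0.20 FPKM in D1 and 3.74 ± 0.15 in D2 labelled male, apart from the lower genes in D2 and overlapping Cacnb3 in D1. After it came Cacnb3 (2.51 ± 0.25 and 1.85 ± 0.28), Scn3b (1.89 ± 0.13 and 1.97 ± 0.099) and Scn2a (1.89 ± 0.085 and 1.79 ± 0.099 FPKM, SD, n = 6), of which Scn3b and Scn2a overlapped in both cell types. In every RiboTag group 7 members had a mean of 1 FPKM or more, in both whole cell groups 2, in nuclear D1 3 and in nuclear D2 0. The order of the methods in these counts depends on the setting. RiboTag libraries had the fewest such members with library sizes within each method, and also with summed exons as length. Scn8a, the other main sodium alpha gene of adult neurons, was at 0.953 ± 0.045 FPKM in D1 (SD, n = 6). The highest gamma gene was the TARP Cacng4, at 0.752 ± 0.12 FPKM in D1 and 0.918 ± 0.12 in D2, near Cacng8 (0.715 ± 0.080 and 0.768 ± 0.067), and the third was Cacng3 (0.365 ± 0.054 and 0.407 ± 0.018). In CPM, Cacnb4 (40.2) stood above Cacnb3 (11.0), and Cacng3 (11.6) above Cacng8 (5.71), in RiboTag D1 labelled male.

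Among alpha1 genes, Cacna1e was highest in RiboTag libraries labelled male (0.623 ± 0.012 FPKM in D1 and 0.667 ± 0.028 in D2, SD, n = 6). On this length unit, the T-type genes Cacna1h (0.385 ± 0.050 in D1) and Cacna1i (0.379 ± 0.029 in D1) followed within their spread of each other. In CPM, Cacna1c (28.5), Cacna1a (26.1) and Cacna1b (17.0) stood above Cacna1i (13.5) and Cacna1h (7.33) in the same D1 libraries. On the gene span, Cacna2d2 was the highest alpha2delta gene in RiboTag D2 (0.632 ± 0.061 FPKM) and D1 (0.370 ± 0.054 FPKM), ahead of Cacna2d4 (0.199 ± 0.019 and 0.216 ± 0.027) and Cacna2d3 (0.236 ± 0.021 and 0.207 ± 0.028). In CPM the order was the reverse for Cacna2d3, at 54.1 against 15.4 for Cacna2d2 in D1 and 61.4 against 26.1 in D2. Cacna2d3 spans 816922 bases and Cacna2d2 129732, while their summed exons are 8720 and 7947 bases. In nuclear D1 libraries Cacna2d3 (0.757 ± 0.29) was the highest of the 4 and Cacna2d2 was at 0.217 ± 0.052 FPKM (SD, n = 6).

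The lowest levels belonged to genes known from other tissues. Cacna1f (retina), Cacna1s, Cacng1, Cacng6 and Scn4a (skeletal muscle), Scn10a and Scn11a (sensory ganglia) and Scn7a (glia) did not pass the filter in RiboTag libraries, where none exceeded 0.236 CPM in any library, and all 8 had no count in at least 1 library. A count of 3, taken as the smallest level a library can show, was worth 0.0436 to 0.811 CPM across libraries, for counting error only. In nuclear D2 libraries, where background was high, 17 members had a median under 3 times background, against 8 in nuclear D1. The members' levels had a Spearman correlation of 0.990 between RiboTag D1 and D2 labelled male, 0.960 between whole cell and nuclear, and 0.888 between nuclear and RiboTag libraries, over 40 genes that share libraries and length units.

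**Figure D4:**
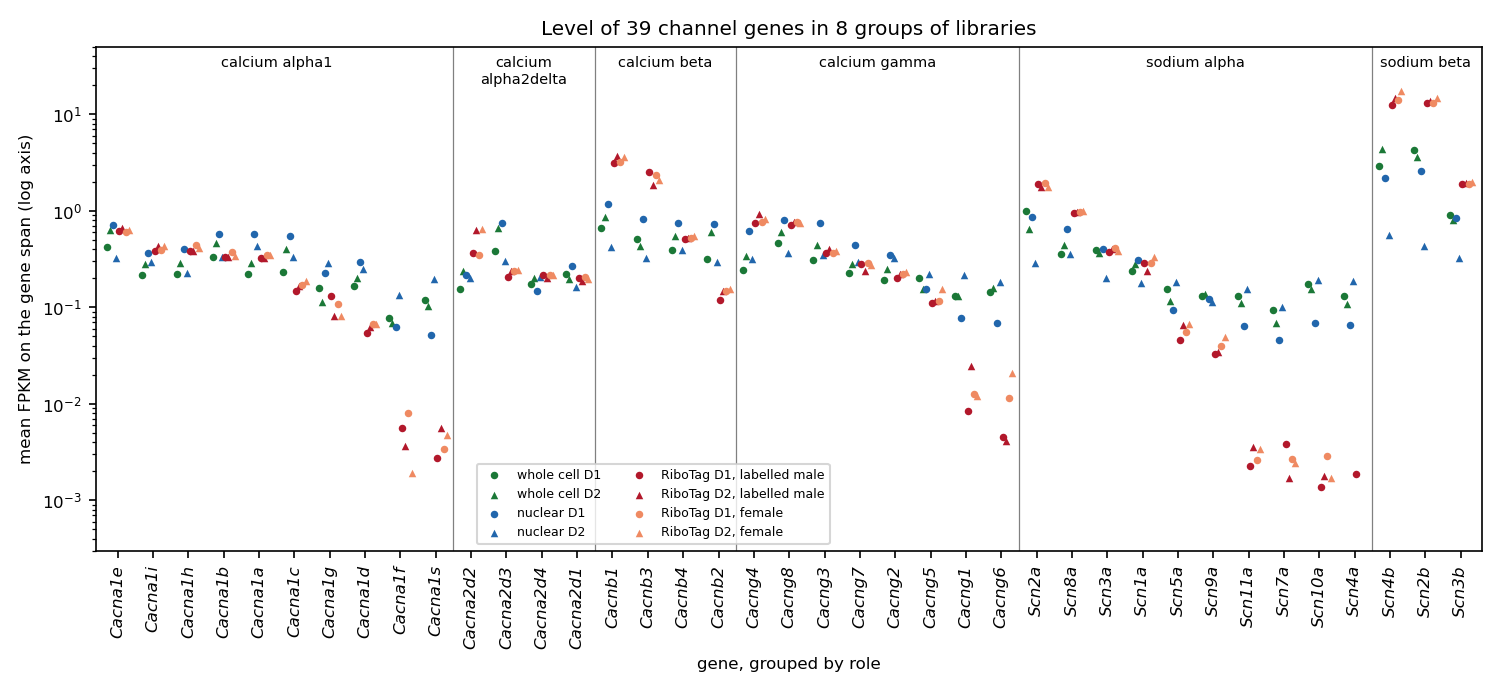
Mean FPKM on the gene span (y axis, log scale) of 39 members, grouped by role and ordered by RiboTag level (x axis), with whole cell in green, nuclear in blue, RiboTag labelled male in red and RiboTag female in orange, circles for D1 and triangles for D2. Means of 0 are not drawn. Scn4b and Scn2b stand above the rest in the whole cell, RiboTag and nuclear D1 groups, while in nuclear D2 they reach 0.568 and 0.430 FPKM, close to Cacna1a at 0.429.

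Between methods, the counts of called members were read beside those of all genes. RiboTag differed from nuclear libraries for 34 members (16 higher and 18 lower), beside 88.3% of all genes, with the median of all genes at -2.76 (log2). RiboTag differed from whole cell libraries for 31 members (17 higher and 14 lower), beside 85.5% (22.1% higher and 63.5% lower). Nuclear differed from whole cell libraries for 13 (9 higher and 4 lower), beside 16.1% (7.31% higher and 8.84% lower). In D1 libraries alone they differed for 23 (21 higher and 2 lower), beside 17.2% (11.5% higher and 5.78% lower). In D2 libraries alone they differed for 12 (1 higher and 11 lower), beside 18.3% (4.45% higher and 13.8% lower). Higher members made up 40% of the RiboTag against nuclear comparison, where 22.4% of all genes were higher and 65.9% lower. On total counts, the RiboTag and nuclear libraries differed for all 40 members, 2 higher and 38 lower, with the median of all genes at -5.57, so the sign of single genes depends on the scale. No share of all genes called is given here for that scale. Relative to the median of all genes, members stood 2.58 (log2) higher under TMM and 2.18 higher on total counts. Every member is protein-coding, while 20581 of the 36239 genes tested were. No share or median over protein-coding genes is given here, so neither this excess nor the 40% can be read as particular to channel genes.

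The sodium beta genes Scn2b and Scn4b had the highest RiboTag minus nuclear differences under TMM. Scn2b was at 3.88 ± 0.32 and Scn4b at 3.82 ± 0.32 (log2, SE), and these were the 2 members still higher on total counts. Scn3b, also called higher, was at 2.11 and turned to -1.12 on total counts. The group extremes were Cacnb1 (2.50) and Cacnb2 (-1.57) for calcium beta, Cacna2d2 (1.44) and Cacna2d3 (-0.90) for alpha2delta, Cacng4 (1.14) and Cacng6 (-4.44) for gamma, Cacna1e (0.65) and Cacna1s (-4.43) for alpha1, and Scn2a (2.10) and Scn4a (-8.03) for sodium alpha (log2, TMM). The values of Scn4a, Cacng6 and Cacna1s rest on RiboTag counts near 0 and are no bound on the difference. Of the higher genes, Cacnb1, Cacna2d2, Cacng4, Cacna1e and Scn2a turned negative on total counts. Nuclear minus whole cell was -1.83 for Scn2b, -1.60 for Scn4b, -0.65 for Scn3b and -0.61 for Scn2a (log2, TMM), the 4 members called lower over both cell types, while Cacna1a, the P/Q-type alpha1 gene, was called higher at 1.03. None of these 4 was called in D1 libraries alone (-0.46, -0.16, 0.10 and 0.03 in the same order), and all 4 were called lower in D2 libraries alone (-3.19, -3.04, -1.39 and -1.25), the nuclear group of high background. Cacna1a was at 1.56 in D1 libraries alone, where it was called, and at 0.50 in D2 libraries alone, where it was not.

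Gene span did not order the members in a simple way. The 8 members over 200 kb had a median RiboTag minus nuclear difference of -0.64 (log2), with 5 called lower and 1 higher, and the 10 members under 30 kb a median of 2.12, with 7 called higher and 3 lower, beside the 65.9% of all genes lower and 22.4% higher in that comparison. The short group holds Scn2b, Scn3b and Scn4b as well as Cacng1, Cacng6 and Cacna1f, which were near 0 in RiboTag libraries. Over all 40 members the Spearman correlation of the difference with log2 span was -0.19, and over the 20581 protein-coding genes tested it was 0.039, both given as a description.

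**Figure D5:**
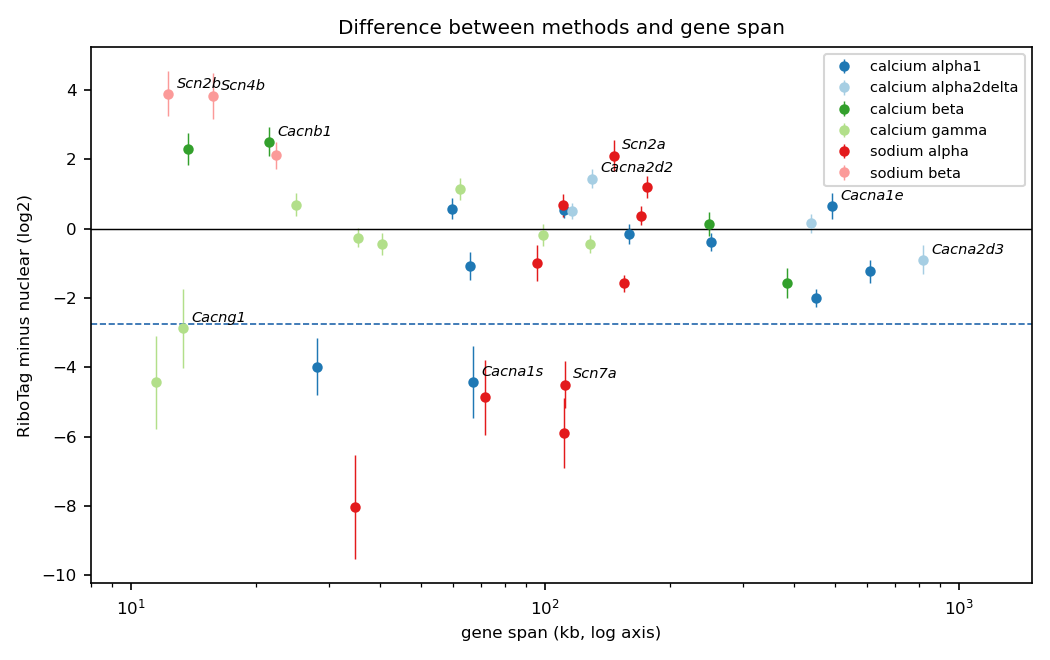
RiboTag minus nuclear difference (y axis, log2, TMM scale) of 39 members against their gene span (x axis, kb, log scale), coloured by role. Points are estimates, lines are 95% intervals, the black line is 0 and the dashed blue line is the median of all genes tested (-2.76). The sodium beta genes Scn2b, Scn4b and Scn3b lie at the upper left, between 2.11 and 3.88.

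A list of 28 partners and other genes of sodium and calcium handling was counted in the same fits. In nuclear libraries 18 were called lower in D2 and none higher, beside 19.4% and 5.43% of all genes, among them Ank3, which anchors sodium channels at the axon initial segment (-1.35), Fgf14, which binds their alpha subunits (-1.59), the calcium pump gene Atp2b1 (-2.0) and the store-release channel gene Itpr1 (-1.61, log2, TMM). The limits given for the nuclear members hold for these values as well. In whole cell libraries and in RiboTag libraries labelled male 0 were called by edgeR's quasi-likelihood test, beside 0.102% and 4.09% of all genes, with 6 in each at an unadjusted p under 0.05. In females 1 was called, beside 2.88% of all genes, the sodium-calcium exchanger gene Slc8a1 (-0.44, log2, adjusted p = 0.00373, edgeR's quasi-likelihood test).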

How the data were processed

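The authors aligned paired-end, ribosome-depleted total RNA libraries to GRCm38 (HISAT2 2.0.5 in the submitters' processing notes) and deposited raw counts per Ensembl gene made with featureCounts over exons and introns, without strand and with a fragment counted for each gene it overlaps. They had left out some RiboTag samples that stood apart in a principal component analysis. The deposited counts were used unchanged. Of 49 columns, a further lane of whole cell D2 number 3 and a repeat column of D1 number 1 were summed with their libraries, giving 47 (chi-square per degree of freedom between the columns 1.04 and 6.90, against 20.1 and 58.4 between separate libraries, so the repeat column differed by more than counting noise; leaving it out or taking it as its own library left the whole cell count at 0), and 1 whole cell sample whose labels conflict was given no group. Genes above 1 CPM in at least 2 libraries of a fit were tested in R 4.3.3 with edgeR 4.0.16 (TMM, quasi-likelihood, Benjamini-Hochberg), and DESeq2 1.42.0 was an alternative. The standard error is the absolute log2 fold change over the square root of F. Spans and overlaps came from GENCODE M21, which matched 99.56% of identifiers. The edgeR fits were tested on simulated data. P-values measure the spread between mice. Named were members called in any comparison of cell types or methods, the 3 highest in level, and the extremes by role. The members and gene lists were chosen with earlier results of these data known. Columns not used numbered 0. The values of 1 member are not reported here by name, while counts over all members include it.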

Additional observations from a re-analysis of the deposited data

Results flagged for a closer look

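No library stood far from its group by Dixon's test, over the 58 nuclear and RiboTag groups of 5 or 6 libraries of called members. The D2 minus D1 difference itself differed between methods for 29 members in nuclear against whole cell libraries and for 20 in RiboTag against nuclear libraries (edgeR's quasi-likelihood test of the interaction, adjusted p of at most 0.05). All 20 were also among the 29, and both comparisons use the nuclear libraries, whose scale and background are described above.

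The values in this paragraph are the nuclear D2 minus D1 difference less the whole cell one (log2, TMM), not levels of one method against the other. On this measure the alpha1 genes differed by -1.07 (Cacna1a), -1.49 (Cacna1b), -1.78 (Cacna1c), -0.77 (Cacna1d), -2.0 (Cacna1e), -1.42 (Cacna1h), -0.90 (Cacna1i) and 1.99 (Cacna1s). The alpha2delta genes differed by -0.79 (Cacna2d1), -0.97 (Cacna2d2) and -2.35 (Cacna2d3), and the calcium beta genes by -2.21 (Cacnb1), -2.50 (Cacnb2), -1.40 (Cacnb3) and -1.69 (Cacnb4). The gamma genes differed by -0.71 (Cacng2), -1.86 (Cacng3), -1.70 (Cacng4), -1.15 (Cacng7) and -1.78 (Cacng8). The sodium alpha genes differed by -1.29 (Scn1a), -1.28 (Scn2a), -1.18 (Scn3a), 1.40 (Scn7a) and -1.46 (Scn8a), and the sodium beta genes by -2.73 (Scn2b), -1.49 (Scn3b) and -2.88 (Scn4b).

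The next values are the RiboTag D2 minus D1 difference, in libraries labelled male, less the nuclear one (log2, TMM). On this measure the alpha1 genes differed by 0.89 (Cacna1b), 1.02 (Cacna1c), 1.37 (Cacna1e) and 0.93 (Cacna1h), and the alpha2delta genes by 0.99 (Cacna2d2) and 1.64 (Cacna2d3). The calcium beta genes differed by 1.90 (Cacnb1), 1.76 (Cacnb2) and 1.13 (Cacnb4), and the gamma genes by 1.39 (Cacng3), 1.38 (Cacng4) and 1.36 (Cacng8). The sodium alpha genes differed by 1.65 (Scn2a), 1.25 (Scn3a), -2.19 (Scn7a) and 1.03 (Scn8a), and the sodium beta genes by 2.85 (Scn2b), 1.57 (Scn3b) and 2.33 (Scn4b).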

How the results depend on the processing

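Cacna2d2 kept its RiboTag call under each alternative run, at 0.71 to 0.81 (log2) in libraries labelled male and 0.71 to 0.92 in females. Counts of members called in nuclear libraries (24) moved to 12 on total counts, 15 with background subtracted and 6 under the study's filters, and ran from 20 to 30 with 1 library left out. DESeq2 called 31 there. In RiboTag libraries labelled male (3), the count was 6 with no limit on the fold change, 1 without the 6 libraries against their label, 4 on total counts, and 2 to 4 with 1 library left out. In females (1), it was 2 on total counts, 2 with no limit on the fold change, 2 in the mean over both sexes, and 1 to 2 with 1 library left out, the 2 arising without the D2 column numbered 2. Whole cell (0) went to 1 with DESeq2 and stayed at 0 with 1 library left out, as did the female against male count. The nuclear against whole cell contrast (13) was 23 in D1 libraries alone (21 higher) and 12 in D2 libraries alone (11 lower). The cell type difference in nuclear against whole cell (29) was 18 on total counts, and that in RiboTag against nuclear (20) was 3 on total counts, 7 with background subtracted and 0 without the libraries against their label by edgeR (21 at an unadjusted p under 0.05). Members at 1 FPKM or more (2 whole cell, 2 nuclear, 7 RiboTag) became 36, 37 and 29 with summed exons as length, and 17, 18 and 3 with library sizes within each method. The cause of these shifts was not tested, and for most of these alternatives the share of all genes called is not given here.

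Total counts reversed the sign in nuclear D2 minus D1 of Cacna1b (0.44), Cacna1c (0.46), Cacna1e (0.13), Cacna1h (0.46), Cacna2d1 (0.47), Cacna2d2 (1.16), Cacnb3 (0.082), Cacnb4 (0.30), Cacng3 (0.18), Cacng4 (0.36), Cacng7 (0.53), Cacng8 (0.078), Scn1a (0.42), Scn3a (0.19) and Scn8a (0.43). In RiboTag minus nuclear they reversed Cacna1e (-2.55), Cacna2d2 (-1.80), Cacnb1 (-0.63), Cacng4 (-2.03), Scn2a (-1.07) and Scn3b (-1.12), and Cacna1e was at -0.032 in D1 libraries alone. In the nuclear against whole cell cell type difference they reversed Cacna1a (0.71), Cacna1b (0.27), Cacna1d (0.95), Cacna1h (0.34), Cacna1i (0.92), Cacna2d1 (0.92), Cacna2d2 (0.86), Cacnb3 (0.55), Cacnb4 (0.11), Cacng2 (1.11), Cacng4 (0.17), Cacng7 (0.52), Scn1a (0.48), Scn2a (0.60), Scn3a (0.56), Scn8a (0.38) and Scn3b (0.26). In that of RiboTag against nuclear they reversed Cacna1b (-0.48), Cacna1c (-0.33), Cacna1e (-0.069), Cacna1h (-0.50), Cacna2d2 (-0.42), Cacnb4 (-0.28), Cacng3 (-0.066), Cacng4 (-0.11), Cacng8 (-0.014), Scn3a (-0.13) and Scn8a (-0.45). The study's filters reversed nuclear Cacna1b (0.21), Cacna1c (0.25), Cacna1h (0.20), Cacnb4 (0.044), Cacng4 (0.040), Cacng7 (0.34) and Scn8a (0.13).

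With the replicate number as a block, the RiboTag libraries labelled male gave 3 called members, and the block changed no call. Same-numbered D1 and D2 libraries correlated at -0.057 to 0.160, and only number 2 correlated best with its own number, so the numbers were not taken to pair mice. No paired analysis was possible in females because their column numbers do not match those of the titles. Total counts alone within a method and for the cell type difference between methods, fits without libraries against their label, without libraries of low background or led by 10 genes, the mean over both sexes, and background subtraction for the cell type difference between methods were chosen after seeing the data.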
